A study of Mus musculus with 8 samples.

Results

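RNA sequencing of regulatory T cells from the spleen (Tregs, which restrain immune responses) was used to compare mice labelled SRC-3 KO with control mice. The comparison here pooled both knockout sorts and both control groups: all 8 libraries of the study, 4 from knockout animals and 4 from control animals. The knockout side held YFP+ and YFP- Tregs of genotype SRC-3 KO, whose background mixes C57BL/6 with 129SvEv (numbers 84 and 85 in each of the sorts, here KO YFP+ and KO YFP-). The control side held YFP+ Tregs of a C57BL/6 WT control (WT YFP+ 23 and 24) and Tregs of a second WT control on a 129SvEv background, titled SRC-3ff, whose label names no YFP sort (SRC-3ff 68 and 72). None of the animals carried a tumor, and total RNA went into SMART-Seq v4 low-input libraries. The titles carry the same numbers, 84 and 85, in both knockout sorts, which were read as 2 animals although no label says so; the labels also give no age, no number of pooled animals, no meaning of YFP and no account of which exons were deleted. Strain differed between each control and the knockout, and 1 control lacked a YFP sort, so genotype, strain and animal cannot be told apart in these data. The word knockout is used here as the labels give it: Ncoa3 itself was still read in all 4 such libraries, and KO YFP- did not pass against either control. The question was which genes held a level in both knockout sorts that set them apart from both controls. Of 55487 genes in the deposited FPKM table (read fragments scaled to transcript length and library size), 14134 had at least 1 FPKM in at least 2 libraries and were tested.

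SRC-3, the product of Ncoa3, is a p160 coactivator that nuclear receptors and other transcription factors recruit to bring histone acetyltransferases to promoters. AP-1, a dimer of Fos and Jun family proteins, is among the factors known to work with p160 coactivators. In T cells, AP-1 partners with NFAT after stimulation of the antigen receptor, and Fos, Jun and Junb are themselves immediate early genes, switched on within minutes of a stimulus without new protein synthesis.

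The FPKM sum per library ran from 384107 to 416393, 12573 to 13251 genes reached 1 FPKM, and sequencing depth is unknown because the table holds no counts. Foxp3, the factor that defines Tregs, measured 19.9 to 31.0 FPKM in the 4 YFP+ libraries and 113 to 205 in the other 4. It thus followed the YFP+ label and not the side (log2 fold change -0.28 ± 0.18 SE, limma adjusted p = 0.447). Cd4 measured 139.5 to 212 FPKM over the 8 libraries. Summed FPKM of the 16 B cell markers was 48.5 to 64.7 in WT YFP+, 78.0 to 88.7 in KO YFP+, 234 to 325 in KO YFP- and 418 to 690 in SRC-3ff; Pax5, a defining B cell gene, reached at most 0.00765 FPKM. The 13 NK cell markers summed to 35.4 to 43.1, 48.9 to 66.5, 265 to 441 and 135 to 199 in the same order of groups. Of these lists 0 of 10 tested B cell genes and 0 of 9 tested NK genes passed the test of knockout against control (1 and 2 at an unadjusted p under 0.05), and both marker sums overlapped between the sides.

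Ncoa3 (ENSMUSG00000027678, chromosome 2, 165992636 to 166073242, GRCm38) was lower in all 4 knockout libraries than in all 4 controls, but the knockout sorts did not share a level. It measured 46.3 and 42.7 FPKM in WT YFP+ cells and 49.7 and 35.4 in SRC-3ff, against 10.9 and 10.2 in KO YFP+ cells and 32.1 and 32.2 in KO YFP-. The libraries of the sides did not overlap, and the gap between SRC-3ff 72 and KO YFP- was small. The log2 fold change of knockout against control was -1.18 ± 0.11 (SE; limma adjusted p = 0.0127). KO YFP+ differed from KO YFP- by -1.52 (adjusted p = 0.00503), from WT YFP+ by -1.98 (adjusted p = 0.0034) and from SRC-3ff by -1.90 (adjusted p = 0.00269). KO YFP- differed from SRC-3ff by -0.38 (adjusted p = 0.271) and from WT YFP+ by -0.46 (adjusted p = 0.134). The pooled call was lost without KO YFP+ 84 (adjusted p = 0.0521) or KO YFP+ 85 (adjusted p = 0.0718). A gene value cannot separate reads of deleted exons from the rest, and in bulk RNA fewer cells carrying a transcript and less of it per cell cannot be told apart. Among the 7 coactivator genes tested, Ncoa3 alone passed. Ncoa7, a coactivator of another family, also lay lower in each knockout library (6.16 to 13.5 against 15.2 to 31.1 FPKM) with an adjusted p of 0.0511, and the paralogs Ncoa1 and Ncoa2 gave -0.16 and -0.11 with adjusted p of 0.622 and 0.764.

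Across all tested genes, the pooled comparison called 154 (1.09%) at a Benjamini-Hochberg adjusted p under 0.05 in limma, 67 higher (0.474%) and 87 lower (0.616%) in knockout animals; 19.6% had an unadjusted p under 0.05. In 1120 genes (7.92%; 4.05% higher, 3.88% lower) the 4 knockout libraries lay entirely above or below the 4 controls, with no test applied. Both conditions held for 70 genes (0.495%), 32 higher (0.226%) and 38 lower (0.269%), of which 51 were protein coding, 18 higher and 33 lower. The other 84 calls came from group means whose libraries overlapped. Of these 84 calls, 70 (83.3%) also passed between the 2 controls, as did 9.22% of tested genes. Of the 70 genes that stood apart, 11 (15.7%) did. The split used the same libraries, and a call with overlapping libraries is likelier where the controls differ. These shares therefore add nothing in favour of the genes that stood apart. The count of 70 moved with every library: leaving out WT YFP+ 23 or 24 gave 44 and 19, leaving out KO YFP+ 84 or 85 gave 4 and 1, leaving out KO YFP- 84 or 85 gave 21 and 29, and leaving out SRC-3ff 68 or 72 gave 20 and 30. When the sorts were averaged for each title number, so that 84 and 85 counted once each, 5 genes passed, of which Fos and Elovl5, a fatty acid elongase, stood apart; with only 2 group means for the 8 libraries 0 passed (limma, 1665 at an unadjusted p under 0.05).

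A shared level means that the 2 knockout sorts resembled each other more than either resembled a control. In 50 of the 70 genes, 22 higher and 28 lower, the smallest of the 4 differences between a knockout sort and a control exceeded the difference between the knockout sorts. The 70 genes were selected for separation in the same libraries, which favours such a gap. The share over all tested genes was not computed, so this count describes the 70 and is not evidence of a shared level. The sorts differed by a median of 0.215 (log2) in the 70 genes and 0.195 over all tested genes. The difference between KO YFP+ and KO YFP- passed in 9 of the 70 (background 4.9% of tested genes), among them Ncoa3, Cxcl10, Slc35d1, Sp6 and Cep85. The 4 comparisons of a knockout sort with a control share libraries. KO YFP+ against SRC-3ff (10.2%) and KO YFP- against WT YFP+ (9.27%) called more genes than the other pairs. In all 4 comparisons 4 genes (0.0283%) passed, namely Fos, Junb and Ppp1r15a, lower (0.0212%), and Hist1h2al, annotated as a processed pseudogene, higher (0.00708%). This requirement was added after the values were seen.

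Fos was held at nearly the same low level in both knockout sorts. Fos (ENSMUSG00000021250, chromosome 12, 85473890 to 85477273), an AP-1 subunit, measured 112 and 96.4 FPKM in WT YFP+ cells and 179 and 203 in SRC-3ff, against 35.2 and 33.0 in KO YFP+ cells and 39.5 and 32.4 in KO YFP-. The 4 knockout libraries were nearly equal and every control library lay far above the highest of them. The log2 fold change was -1.98 ± 0.093 (SE; limma adjusted p = 0.00195), and the knockout sorts differed by -0.068 (YFP+ minus YFP-). The 4 single comparisons gave log2 fold changes of -2.45 to -1.51 (adjusted p = 0.000973 to 0.00590). Of the 70 genes, Fos alone passed with each of the 8 libraries left out (highest adjusted p = 0.0333), and it passed with the sorts averaged per title number (adjusted p = 0.0130). It did not pass with 2 group means (adjusted p = 0.137), where the difference between the controls, -0.87 for WT YFP+ minus SRC-3ff, counts as error. An exact two-sided permutation test can give no less than p = 0.0286 over the 8 libraries (70 splits) and p = 0.0667 over the 6 title numbers (15 splits); Fos, Jun and Ncoa3 sit at these limits because their libraries do not overlap, which adds nothing to that separation.

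Other immediate early genes were lower alongside Fos. Of 27 listed genes 23 were tested, and 6 passed, all lower and all apart (0.616% of all tested genes passed lower): Fos, Dusp1, Ppp1r15a, Jun, Junb and Klf6. The list median was -0.17 against 0.0118 for all tested genes, and 19 of 23 had a negative change. The list was drawn up with earlier results for Fos and Jun known, so its direction is not independent evidence. Whichever single library was left out, the call for Klf6 was lost. Fos alone of the 6 kept its call in every such case, and without KO YFP+ 85 no other member passed.

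Jun (ENSMUSG00000052684, chromosome 4, 95049034 to 95052222), the partner of Fos in AP-1, measured 156 and 157 FPKM in WT YFP+ cells and 198 and 219 in SRC-3ff, against 112 and 102 in KO YFP+ cells and 111 and 88.5 in KO YFP-. No knockout library reached a control library, and the change was -0.80 ± 0.089 (limma adjusted p = 0.0177). Without WT YFP+ 23 or 24, KO YFP+ 84 or 85, or SRC-3ff 68 or 72 the adjusted p for Jun was 0.0504 to 0.0827. Junb (chromosome 8, 84974484 to 84978718), another AP-1 subunit, measured 611 and 630.0 in WT YFP+ cells and 539 and 495 in SRC-3ff, against 381 and 369 in KO YFP+ cells and 333 and 280.4 in KO YFP-. The change in Junb was -0.74 ± 0.077 (adjusted p = 0.0140), nearly the same against WT YFP+ for YFP+ cells (-0.72) as against SRC-3ff for YFP- cells (-0.76). Its call was lost without WT YFP+ 24, KO YFP+ 84, KO YFP+ 85 or SRC-3ff 68 (adjusted p = 0.0504 to 0.0779).

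Ppp1r15a (chromosome 7, 45522916 to 45526268), which encodes GADD34, the phosphatase subunit that reverses phosphorylation of the initiation factor eIF2α, measured 84.9 and 84.0 FPKM in WT YFP+ cells and 74.4 and 65.4 in SRC-3ff, against 44.7 and 43.7 in KO YFP+ cells and 34.8 and 37.3 in KO YFP-. The change was -0.93 ± 0.067 (limma adjusted p = 0.00736), with -0.92 for KO YFP+ against WT YFP+ and -0.93 for KO YFP- against SRC-3ff. The call was lost without KO YFP+ 85 (adjusted p = 0.0529). Dusp1 (chromosome 17, 26505590 to 26562128), a phosphatase that inactivates MAP kinases, measured 115 and 164 in WT YFP+ cells and 231 and 189 in SRC-3ff, against 66.6 and 71.5 in KO YFP+ cells and 85.6 and 61.6 in KO YFP-. The control libraries of Dusp1 spread widely but all exceeded the knockouts, at -1.25 ± 0.15 (adjusted p = 0.0249; 0.0589 to 0.0980 without WT YFP+ 24, KO YFP+ 84 or 85, KO YFP- 85 or SRC-3ff 68). Klf6, a zinc finger factor, measured 77.2 to 100.4 in controls and 48.3 to 59.8 in knockouts (-0.66 ± 0.094, adjusted p = 0.0338), and its adjusted p was 0.0718 to 0.101 with any 1 library left out. Zfp36, which destabilises cytokine mRNAs, was also apart (93.3 to 124 against 54.3 to 89.5 FPKM) but gave -0.54 with an adjusted p of 0.0540.

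The early response genes did not move as a block. Egr1, Nr4a1, Ier2 and Jund overlapped between the sides and gave -0.25, -0.19, -0.17 and -0.04 with adjusted p of 0.486, 0.555, 0.270 and 0.841. Egr3 and Gadd45b were higher in each knockout library than in each control (1.30 to 2.07 against 0.965 to 1.22 FPKM, and 21.4 to 31.2 against 18.5 to 20.2) without passing (0.34 and 0.31, adjusted p = 0.201 and 0.144). Batf, Maf and the other AP-1 partners gave 0 calls of 13 tested (4 at an unadjusted p under 0.05).

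**Figure D1:**
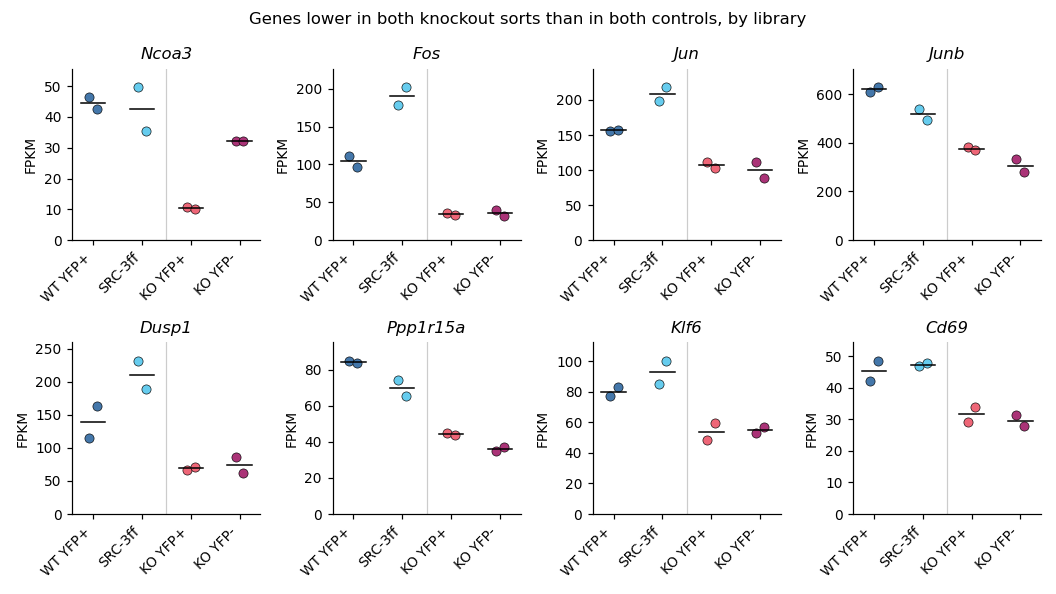
FPKM of 8 genes in each library; points are single libraries, bars are the mean of the 2 libraries of a group, and a grey line separates the controls on the left from the knockout sorts on the right. In all 8 genes the 4 knockout points lie below the 4 control points; Fos, Jun, Junb, Dusp1, Ppp1r15a, Klf6 and Cd69 sit at similar heights in both knockout sorts, while Ncoa3 is at 10.2 to 10.9 in KO YFP+ and 32.1 to 32.2 in KO YFP-.

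The promoters of the 6 early genes that passed are shown to describe the sequence next to their start sites. Any elements further away lie outside the windows shown. The sequences are the 250 bases upstream of the start, on the gene's strand, 5′ to 3′, from RefSeq on GRCm38.p6, for Fos (chr12:85473640-85473889, plus strand), Jun (chr4:95052223-95052472, minus), Junb (chr8:84978749-84978998, minus), Ppp1r15a (chr7:45526269-45526518, minus), Dusp1 (chr17:26508473-26508722, minus) and Klf6 (chr13:5861239-5861488, plus). For Dusp1 the RefSeq start differs from the outer end of the longer gene interval given above, and the window lies inside that interval. Capitals mark TGACG, the CREB and ATF half-site, and TGACATCA, an AP-1 and ATF variant, on either strand; overlapping matches run together, so TGACGTCA is 2 overlapping half-sites.
Fos: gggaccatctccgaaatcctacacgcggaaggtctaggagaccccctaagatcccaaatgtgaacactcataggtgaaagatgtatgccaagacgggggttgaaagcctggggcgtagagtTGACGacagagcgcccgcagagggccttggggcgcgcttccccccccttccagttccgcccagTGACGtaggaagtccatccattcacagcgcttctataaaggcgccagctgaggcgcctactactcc
Jun: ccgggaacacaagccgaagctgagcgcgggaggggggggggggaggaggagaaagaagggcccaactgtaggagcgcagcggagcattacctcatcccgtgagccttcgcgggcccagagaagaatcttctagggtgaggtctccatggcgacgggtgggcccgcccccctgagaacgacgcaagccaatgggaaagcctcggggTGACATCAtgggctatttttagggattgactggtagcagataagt
Junb: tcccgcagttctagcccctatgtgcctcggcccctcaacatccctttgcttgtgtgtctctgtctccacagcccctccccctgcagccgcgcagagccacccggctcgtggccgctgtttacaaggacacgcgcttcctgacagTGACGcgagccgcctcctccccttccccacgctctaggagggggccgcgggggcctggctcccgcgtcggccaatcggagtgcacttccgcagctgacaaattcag
Ppp1r15a: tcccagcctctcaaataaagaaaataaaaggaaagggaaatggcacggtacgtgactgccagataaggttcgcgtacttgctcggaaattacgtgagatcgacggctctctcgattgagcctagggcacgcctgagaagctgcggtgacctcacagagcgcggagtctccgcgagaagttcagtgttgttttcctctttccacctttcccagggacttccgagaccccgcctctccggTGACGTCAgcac
Dusp1: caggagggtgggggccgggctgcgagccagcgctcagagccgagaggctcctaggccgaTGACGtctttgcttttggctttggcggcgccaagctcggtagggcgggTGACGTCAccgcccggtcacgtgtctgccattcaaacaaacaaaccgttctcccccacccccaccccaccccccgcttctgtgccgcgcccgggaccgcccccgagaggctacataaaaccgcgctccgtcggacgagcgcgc
Klf6: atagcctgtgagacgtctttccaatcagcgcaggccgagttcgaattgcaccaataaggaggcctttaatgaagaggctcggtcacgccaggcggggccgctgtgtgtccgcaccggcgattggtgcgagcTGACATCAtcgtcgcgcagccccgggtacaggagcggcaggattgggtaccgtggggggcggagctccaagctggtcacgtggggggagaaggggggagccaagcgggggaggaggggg

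TGACG occurred in the promoters of 4 of the 6 passing early genes (Fos 2 matches, Junb 1, Ppp1r15a 2, Dusp1 3), in 12 of 23 early genes tested (52.2%), in 27.9% of 10690 promoters of tested genes and in 17.8% of all 32851 promoters. The full palindrome TGACGTCA was in Ppp1r15a and Dusp1 and in 2.64% of promoters of tested genes. TGACATCA, searched after the sequences were read, was in Jun and Klf6 and in 1.54% of promoters of tested genes. The consensus AP-1 site TGANTCA was in 0 of the 23 early gene windows and in 4.12% of promoters of tested genes. These matches describe letters in the window and carry no measurement of binding.

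**Figure D2:**
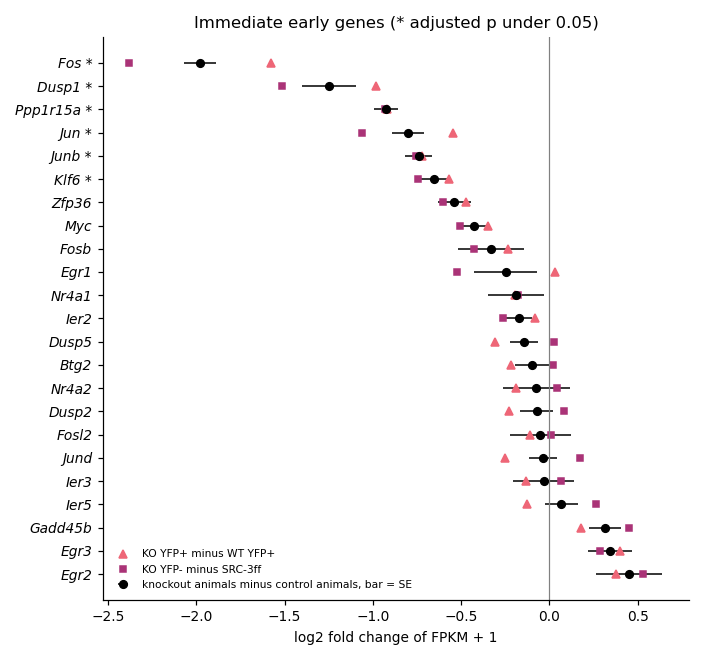
Log2 fold changes of the 23 tested immediate early genes; black points are knockout minus control animals with bars of 1 SE, triangles KO YFP+ minus WT YFP+ and squares KO YFP- minus SRC-3ff, and an asterisk marks an adjusted p under 0.05. The 6 marked genes lie between -1.98 and -0.66 with both single comparisons negative, and Egr2, Egr3 and Gadd45b are among the genes to the right of 0.

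Beyond the early genes, lower genes with a shared level included receptors, adaptors and signalling components. Cd69, an early activation antigen that retains T cells in tissue, measured 42.0 and 48.6 FPKM in WT YFP+ cells and 46.9 and 47.9 in SRC-3ff, against 29.2 and 33.9 in KO YFP+ cells and 31.4 and 27.8 in KO YFP-. Both controls and both knockout sorts formed tight sets, with a change of -0.59 ± 0.086 (limma adjusted p = 0.0358). Irs2, an adaptor of insulin and cytokine receptors, measured 13.1 to 18.6 in controls and 7.08 to 9.04 in knockouts (-0.89 ± 0.10, adjusted p = 0.0215). Smad2, a TGF-beta signal transducer, was 13.2 to 15.1 against 9.33 to 9.99 (-0.50, adjusted p = 0.0439), the only call among 16 tested TGF-beta pathway genes; the common partner Smad4 was apart as well, 48.3 to 53.4 against 31.1 to 44.96, with an adjusted p of 0.0511. Rap1b, a small GTPase that controls integrin adhesion, was 128 to 139 against 97.1 to 106 (-0.42, adjusted p = 0.0319), and Zfp36l2, an mRNA decay factor related to Zfp36, was 82.7 to 103 against 54.6 to 65.1 (-0.57, adjusted p = 0.0452). The calls for Cd69, Smad2 and Rap1b were lost whichever single library was left out. Those for Zfp36l2 and Irs2 were lost in most such cases. Cd69, Irs2, Rap1b and Zfp36l2 were chosen after their values were seen.

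In other lower genes the sorts or the controls were less alike. Ube2l3, a ubiquitin-conjugating enzyme, was 11.4 to 13.0 FPKM in the knockouts but 13.9 and 14.7 in SRC-3ff against 87.6 and 55.2 in WT YFP+, so its change of -1.32 (limma adjusted p = 0.0176) rested on WT YFP+. Slc35d1, a nucleotide sugar transporter, fell to 7.74 and 6.49 in KO YFP+ and to 2.38 and 2.52 in KO YFP-, from 7.80 to 12.6 in controls (-1.07, adjusted p = 0.0261). Car2, a carbonic anhydrase, had like levels in both knockout sorts and was 3.02 to 3.84 in knockouts and 6.38 to 18.97 in controls (-1.39, adjusted p = 0.0446), with the highest value in SRC-3ff 72. Atp11b, a phospholipid flippase, was 18.6 to 32.6 against 38.4 to 54.4 (-0.89, adjusted p = 0.0256). Leaving out single libraries ended these calls in 5 of 8 cases for Ube2l3, 7 for Slc35d1 and Car2 and 6 for Atp11b.

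Genes higher in both knockout sorts included Asns, Gpm6b and noncoding or histone transcripts. The largest change was that of the antibody light chain segment Igkv4-80 (3.48, limma adjusted p = 0.0121; 3.26 to 37.3 FPKM in knockouts and at most 0.868 in controls), which falls outside the naming rule as a receptor segment, as does Trav9n-2 (1.55), and was named after its value was seen. Asns, asparagine synthetase, measured 1.48 and 1.98 FPKM in WT YFP+ cells and 3.07 and 5.29 in SRC-3ff, against 11.2 and 8.81 in KO YFP+ cells and 7.73 and 8.44 in KO YFP-. The knockout sorts were close to each other and above both controls, with a change of 1.43 ± 0.17 (limma adjusted p = 0.0239). Asns was the only call among 20 tested genes of the integrated stress and amino acid response, whose median was -0.09. Gpm6b, a membrane glycoprotein, measured 3.05, 2.24, 2.83 and 2.37 in the controls, 5.29 and 5.83 in KO YFP+ cells and 11.1 and 9.62 in KO YFP- (1.26 ± 0.125, adjusted p = 0.0129), so both sorts were above control but not at the same level. Cdk13, a kinase of RNA polymerase II, was 5.37 to 8.64 in controls and 10.8 to 17.3 in knockouts (0.97, adjusted p = 0.0458). Rgl2, a Ral exchange factor, was 6.81 to 9.89 against 13.3 to 20.2 (0.85, adjusted p = 0.0338), and Atg16l2, an autophagy gene, 7.43 to 8.99 against 12.5 to 16.3 (0.70, adjusted p = 0.0399). Mir142hg, the host transcript of a haematopoietic microRNA, was 13.3 to 16.0 in knockouts, 9.93 and 10.01 in WT YFP+ cells and 4.60 and 5.24 in SRC-3ff (0.94, adjusted p = 0.0127). Mir7058, Hist1h4n and Cep85 also passed and stood apart, at 1.32, 1.13 and 0.77; Hist1h4n belongs to a family of near-identical histone genes, and Mir7058 and Mir142hg can share reads with overlapping genes, since strand use in counting is not given in the sources used here. Without single libraries Gpm6b and Mir142hg were lost only without KO YFP+ 84 or 85 (adjusted p = 0.0521 to 0.0718), Asns without any WT or knockout library (0.0680 to 0.0792), Rgl2 in 7 of 8 cases and Cdk13 and Atg16l2 in each.

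**Figure D3:**
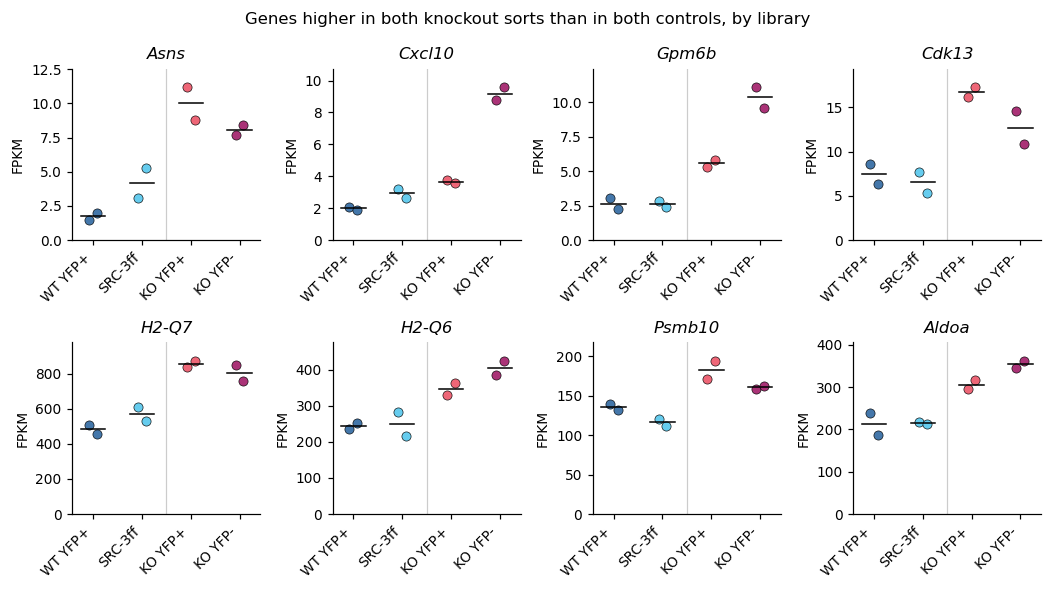
FPKM of 8 genes in each library, with points for libraries, bars for the mean of 2 and a grey line between controls on the left and knockout sorts on the right. All 4 knockout points lie above the 4 control points in each panel; Asns, H2-Q7 and Cdk13 have overlapping or nearly overlapping knockout sorts, while Cxcl10 and Gpm6b are highest in KO YFP-.

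Genes of antigen presentation and the interferon gamma axis were partly higher. Of 18 tested MHC class I genes 3 passed higher (H2-Q6 and H2-T22 not with title number as a block, adjusted p = 0.0634 and 0.0712), against 0.474% of all tested genes, and 1 lower, and 0 or 1 of the 18 passed with any library left out. H2-Q7, a nonclassical class I molecule, measured 510 and 453 FPKM in WT YFP+ cells and 610 and 532 in SRC-3ff, against 839 and 872 in KO YFP+ cells and 847 and 756 in KO YFP-. The groups were well separated, with a change of 0.66 ± 0.083 (limma adjusted p = 0.0261). H2-Q6 was 218 to 282 in controls and 331 to 425 in knockouts (0.61, adjusted p = 0.0458), and H2-T22 60.8 to 76.0 against 89.3 to 110.5 (0.51, adjusted p = 0.0458). H2-K1, a classical class I heavy chain, and H2-T23 were apart too, without passing (0.33 and 0.58, adjusted p = 0.0993 and 0.0665). H2-Q and H2-T genes are near-identical copies and differ between strains, so reads may be split between them, and H2-Q2 was 21.4 and 25.1 in WT YFP+ against 3.04 to 5.33 in the other 6 libraries. Psmb10, an immunoproteasome subunit, was 111 to 140.0 in controls and 159 to 194 in knockouts (0.44, adjusted p = 0.0399). Psmb10 is in none of the lists and was chosen after its value was seen. Cxcl10, an interferon-induced chemokine, was 1.88 to 3.23 in controls, 3.58 and 3.75 in KO YFP+ cells and 8.75 and 9.60 in KO YFP- (1.01, adjusted p = 0.0176). Its receptor Cxcr3 passed without being apart, at 171 and 223 FPKM in KO YFP- against 31.4 to 87.6 in the other 6 libraries. The list of interferon-induced GTPases gave 0 calls of 16 (5 at an unadjusted p under 0.05), and Isg15, 1 call of 24 in the type I interferon list, overlapped between the sides. The calls for H2-T22 and Psmb10 were lost whichever single library was left out. Those for H2-Q7, H2-Q6 and Cxcl10 were lost in most such cases. The sums of the NK and CD8 marker lists were highest in KO YFP-, as for Cxcl10 and Cxcr3. Cd8a, 1 of the 7 genes of the CD8 list, was 0 FPKM in both KO YFP- libraries and at most 0.283 in any library. It was the only gene of that list below the test filter. The other 6 were tested, so Cd8a alone does not describe the list. What part cells other than Tregs have in these values was not tested.

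Aldoa, a glycolytic enzyme, measured 238 and 187 FPKM in WT YFP+ cells and 217 and 213 in SRC-3ff, against 296 and 317 in KO YFP+ cells and 345 and 362 in KO YFP- (0.62 ± 0.088, limma adjusted p = 0.0338; 0.0607 to 0.116 with any library other than WT YFP+ 23 left out). It was the only call among 23 glycolysis genes, whose median was -0.0024. Of 43 nuclear oxidative phosphorylation genes 5 were apart and higher (4.05% of all tested genes were), none of which passed, and the 1 call, Atp5e, overlapped between the sides. Nuclear receptors, SRC-3 partner coregulators, heat shock, cholesterol synthesis and proximal T cell receptor signalling genes gave 0 calls of 18, 20, 18, 29 and 28 tested in limma (4, 3, 1, 3 and 9 at an unadjusted p under 0.05). Among 21 Treg identity genes Il2ra and Gpr83 passed lower (0.616% of all tested genes did), and both overlapped: Il2ra was 42.8 and 43.5 FPKM in KO YFP- and 83.1 to 113 elsewhere. Ikzf2, which encodes Helios, was 24.4 to 28.5 in knockouts and 11.8 to 19.5 in controls, apart but with an adjusted p of 0.101.

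The pooled result was then read as 2 comparisons that share no library, although the knockout libraries carry the same numbers. KO YFP+ against WT YFP+ called 107 genes (0.757%) and KO YFP- against SRC-3ff called 91 (0.644%). The 4 genes called in both were 3.74% of the first and 4.4% of the second. Each had the same sign in both comparisons: Fos, Junb and Ppp1r15a were lower and Hist1h2al was higher. Over the 14134 genes the log2 fold changes of the 2 comparisons had a Pearson r of 0.126 and a Spearman rho of 0.193, across genes that are not independent, and 58.4% had the same sign. The 2 changes differed past the threshold in 68 genes (0.481%), 3 of them among the 70 set apart: Ncoa3, Ube2l3 and Trav9n-2. For Fos the changes were -1.58 and -2.38, for Jun -0.54 and -1.06, for Asns 2.01 and 0.84 and for Gpm6b 0.86 and 1.66, and none of these pairs differed past the threshold (adjusted p = 0.187, 0.386, 0.304 and 0.335).

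**Figure D4:**
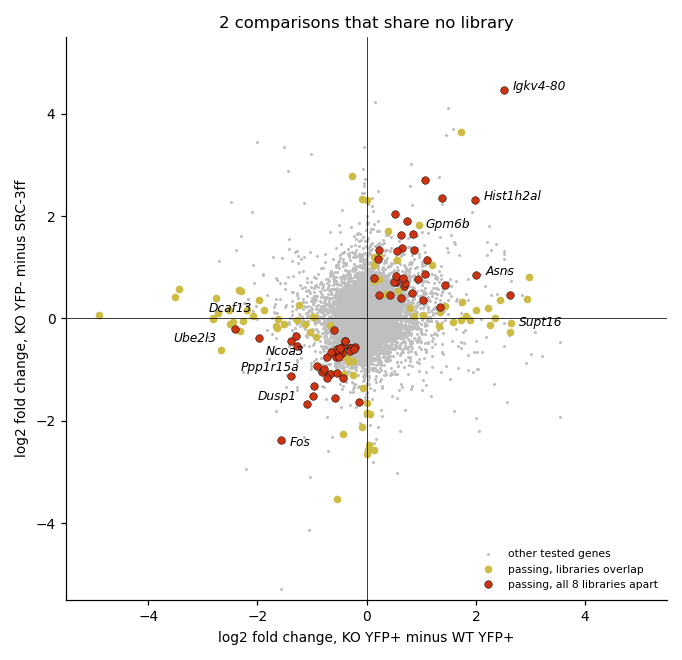
Each point is 1 of 14134 tested genes, with the log2 fold change of KO YFP+ minus WT YFP+ on the x axis and of KO YFP- minus SRC-3ff on the y axis; red points pass the pooled test with all 8 libraries apart and yellow points pass with overlapping libraries. Red points such as Fos (-1.58 and -2.38) lie in the lower left and upper right, and many yellow points, such as Dcaf13 and Supt16, lie along an axis, where only 1 of the 2 comparisons moved.

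Genes near Ncoa3 on chromosome 2 were described by their distance from it. Of 289 other tested genes within 20 Mb on either side, 8 passed (2.77%), all lower, and 5 of these were apart (1.73%), against 1.08% and 0.48% on the other chromosomes; the window was chosen after the values were seen. Serinc3, a membrane protein of the serine incorporator family at -2.4 Mb from Ncoa3, measured 120 and 136 FPKM in WT YFP+ cells and 65.5 and 73.5 in SRC-3ff, against 47.2 and 49.0 in KO YFP+ cells and 51.9 and 49.3 in KO YFP-. The knockout sorts were alike and the controls were not, at -0.92 ± 0.073 (limma adjusted p = 0.0115; 0.0521 and 0.0601 without KO YFP+ 84 or 85). Sdc4, a syndecan at -1.6 Mb, was 4.83 to 5.96 in controls, 1.27 and 2.03 in KO YFP+ cells and 3.20 and 3.32 in KO YFP- (-0.91, adjusted p = 0.0385; no call with any library left out). Strain and deletion cannot be told apart for these genes.

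**Figure D5:**
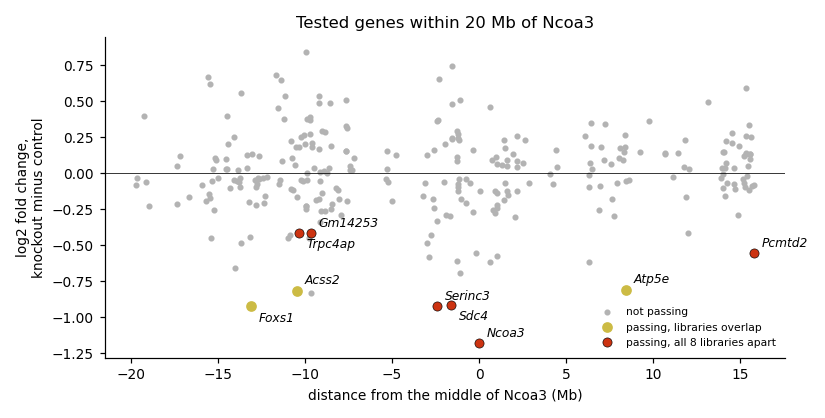
Log2 fold change of knockout minus control animals for tested genes within 20 Mb of the middle of Ncoa3, plotted against distance in Mb; red points pass with all 8 libraries apart, yellow points pass with overlapping libraries and grey points do not pass. All 8 passing neighbours lie below 0, with Serinc3 and Sdc4 nearest to Ncoa3.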

How the data were processed

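The authors deposited gene-level FPKM values for 8 libraries; reads had been trimmed, aligned and quantified with tools that include Trim Galore, STAR and StringTie on mm10 (GRCm38), per the submitters' processing notes. Of tool versions, annotation and strand setting, nothing is said in the sources used. FPKM keeps no depth, so counting error could not be computed. The 13 mitochondrial coding genes are listed at 0. Of 55487 identifiers, 55227 were in GENCODE M21. A gene was tested where 2 or more libraries reached 1 FPKM, on log2(FPKM + 1), which understates changes of low genes, in limma 3.58.1 (R 4.3.3): 4 group means, trended empirical Bayes, 4 residual degrees of freedom, and the mean of both knockout sorts minus the mean of both controls. P-values were adjusted by Benjamini-Hochberg over 14134 genes, with a threshold of 0.05. Labels do not say that libraries came from separate animals, so p-values measure the spread between libraries, which may be technical. Genes were named as Ncoa3, Fos, Jun and Foxp3, the 10 largest changes each way among genes passing and apart with a mean of at least 5 FPKM on the higher side (predicted genes, clones, pseudogenes and receptor segments left out), and up to 4 members of each of 29 lists. The members and lists were chosen with earlier results of these data known. The script was tested on simulated data. Alternatives covered the pseudocount, the filter, scaling, receptor segments, title number as a block, averaging of sorts, 2 group means and left-out libraries. Promoters came from RefSeq (GRCm38.p6). Python 3.11.15, pandas 2.3.3 and matplotlib 3.10.9 were used. Values of some list members are not reported here.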

Additional observations from a re-analysis of the deposited data

Results flagged for a closer look

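The change from control to knockout differed past the threshold between KO YFP+ against WT YFP+ and KO YFP- against SRC-3ff (limma, adjusted p of the difference itself) for 8 named genes. The first change minus the second was -3.997 for Ifi206 (adjusted p = 0.0132), -2.33 for Atp5e (0.00289), -2.21 for Ube2l3 (0.0385), -2.20 for H2-Q2 (0.0455), -2.04 for Ifi213 (0.0385) and -1.61 for Ncoa3 (0.0417). It was 2.17 for Trav9n-2 (0.0417) and 1.92 for Fcer1g (0.0256), a signalling chain of Fc receptors. In Ifi206, Atp5e, Ube2l3, H2-Q2 and Ifi213 both WT YFP+ libraries lay above the other 6 libraries, and in Trav9n-2 both lay below them. Ifi206 measured 35.1 and 38.8 FPKM in WT YFP+ and 1.93 to 5.97 elsewhere, and Atp5e 167 and 162 against 32.0 to 43.0. Fcer1g measured 19.97 and 21.3 FPKM in SRC-3ff, 5.25 and 4.60 in KO YFP- and at most 0.0646 in the YFP+ libraries.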

How the results depend on the processing

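Of the 70 genes, 0 changed sign under any setting. The replicate block on title number left 40 genes passing and apart, 37 of them shared with the 70, and 39 calls for KO YFP- against SRC-3ff; the deviations of same-numbered knockout libraries correlated at 0.137, over 2 pairs. Smad2, Cdk13, Atg16l2, Car2, Zfp36l2, H2-Q6 and H2-T22 were among the calls lost under this block and with title number as a random block, which left 49. Averaging the sorts per title number left 5 calls, 2 of them apart, and Ncoa3 (-1.18) and Jun (-0.80) did not pass. With 2 group means 0 genes passed and 0 passed and stood apart (limma, 1665 at an unadjusted p under 0.05), with Ncoa3 at -1.18, Fos at -1.98 and Jun at -0.80. Without the filter 32 genes passed and stood apart, KO YFP+ against WT YFP+ gave 68 and Jun (-0.80) did not pass. A pseudocount of 0.1 gave 44 calls for KO YFP- against SRC-3ff and 36 for the difference of the 2 comparisons, and a minimum of 5 FPKM gave 55 and 38. With libraries or title numbers left out, calls ranged from 3 to 77, those apart from 1 to 44, KO YFP+ against WT YFP+ from 0 (without number 85, 1002 unadjusted) to 102, KO YFP- against SRC-3ff from 0 (without SRC-3ff 68, 2055 unadjusted) to 31, and the difference from 2 to 42. Ncoa3 ranged from -1.30 to -1.06, Fos from -2.07 to -1.89 and Jun from -0.92 to -0.69. Signs turned only for genes that did not pass: Sdc1 with a pseudocount of 0.1 (0.041), Fkbp11 (0.078) and Eomes (0.056) without KO YFP- 85, Eomes without SRC-3ff 68 (0.0036), and Fkbp11 (0.021) and Eomes (0.090) without number 85; without number 84 these were -0.53 and -0.26. The cause was not tested. Each named gene was counted once per setting. Of these values 2284 kept their status, whether passing or not, 995 lost a call and 13 gained a call. The 2284 include genes that did not pass in the main test, so they are not a count of calls kept. Depth is unknown, and the knockout side rests on 2 title numbers.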

Other observations

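Several lists had mostly negative changes and few or no calls. Of 31 cell cycle genes 29 had a negative change and 0 passed in limma (10 at an unadjusted p under 0.05), with a median of -0.40 against 0.0118 over all tested genes; the median was -0.13 for KO YFP+ against WT YFP+ and -0.63 for KO YFP- against SRC-3ff. Of 17 resting and homing genes 15 were negative (median -0.26), and S1pr1, the receptor for egress from lymphoid tissue, passed lower with overlapping libraries (-0.55, adjusted p = 0.0338). Of 16 TGF-beta signalling genes 3 stood apart and lower, namely Smad2, Smad4 and Tgfbr3, against 3.88% of all tested genes, with a list median of -0.25.

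Interferon-induced GTPases had a median of 0.17 and the type I interferon list 0.30, at -0.03 for KO YFP+ and 0.57 for KO YFP- against their controls. Of all tested genes 0.474% passed higher and 0.616% lower. Of 10 Ifi200 family genes 2 passed lower, of 11 interferon gamma axis genes 2 passed higher, of 20 NF-kB genes 1 passed higher (Icam1) and of 25 effector Treg genes 1 passed higher (Cxcr3). Among the other marker lists, 0 of 12 plasma cell, 0 of 3 erythroid and platelet and 0 of 2 sex-linked genes passed (1, 0 and 1 at an unadjusted p under 0.05), with 1 of 6 CD8 T cell genes (Ccl5, higher) and 1 of 7 myeloid genes (Fcer1g, lower). CD8 marker FPKM summed to 104 to 107 in KO YFP-, 40.5 to 43.0 in SRC-3ff and 13.6 to 17.8 in the YFP+ libraries. Cd8a, the only gene of that list below the test filter, was 0 FPKM in both KO YFP- libraries and at most 0.283 in any library. It does not describe the other 6 genes of the list.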
